A study of Homo sapiens with 6 samples.

Results

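The genes described here are 10 that encode enzymes of fatty acid synthesis, elongation, desaturation and activation: SCD, FASN, ACACA, ACLY, ELOVL5, ELOVL6, FADS1, FADS2, ACSL1 and ACSL3. They were taken by symbol from the 58233 rows with an Ensembl identifier, where each symbol matched 1 row, and all 10 passed the minimum mean value of 1 that 13346 genes passed. They were measured in T24 cells, a line established from a human bladder carcinoma. Cells that stably express Q63E, a constitutively active RhoC mutant (n = 3 libraries), were set against cells with the vector, VEC (n = 3). Both groups were made with lentivirus and selected with puromycin, and the labels name neither clones nor separate cultures, so p-values here measure library-to-library spread, possibly only technical.

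Fatty acids are built in the cytosol from acetyl-CoA, which ATP-citrate lyase makes from citrate. Acetyl-CoA carboxylase and fatty acid synthase turn it into palmitate, elongases lengthen the chain in the endoplasmic reticulum, and desaturases place double bonds in it. Acyl-CoA synthetases activate free fatty acids for lipid assembly or oxidation, and the transcription factor SREBP-1 drives many of these genes. Many carcinoma cells make fatty acids themselves, and stearoyl-CoA desaturase supplies the monounsaturated chains of their membranes and stored lipids.

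Values are taken as FPKM, which divides by transcript length, so levels can be compared between genes. Library sums ran from 726929 to 741778 in Q63E and from 746175 to 769026 in VEC, and read depth is unknown. RHOC, the transduced gene, had 1770, 1726 and 1744 FPKM in Q63E libraries, against 232, 218 and 232 FPKM in VEC libraries, a 7.69-fold rise. Of 14 urothelial and epithelial markers, 5 had a mean of at least 1, and KRT5, UPK3A and CDH1 were listed at 0 in all libraries. The keratins KRT7, KRT8 and KRT18 carried the markers' sum, which was 3209 to 3317 FPKM in Q63E and 2123 to 2166 FPKM in VEC. Of 6 leukocyte markers 3, among them PTPRC and CD3E, were listed at 0 in all libraries, and the 6 summed to 9.53 to 11.1 FPKM in Q63E and 17.7 to 19.55 FPKM in VEC. Nearly all of that sum was CD68, a lysosomal protein abundant in macrophages, which fell (log2 fold change -0.82, limma adjusted p = 0.000847). Of 5 fibroblast markers 1, COL1A1, had a mean of at least 1, and the 5 summed to 2.44 to 3.70 FPKM in Q63E and 1.89 to 2.28 FPKM in VEC. The 4 endothelial markers summed to at most 0.24 FPKM and the 4 adipocyte markers to at most 0.13 FPKM in any library. The part of these marker differences in the results was not tested. In bulk RNA, fewer cells of a type and less RNA per cell cannot be told apart.

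The desaturase SCD had the largest change of the 10 genes, a 3.02-fold rise in Q63E, while FASN, ACACA and ACLY did not pass the test. FADS2, the first desaturase of polyunsaturated chains, rose 1.88-fold and ACSL3, an acyl-CoA synthetase of the endoplasmic reticulum and lipid droplets, rose 1.37-fold. ELOVL6, which lengthens palmitate to stearate, fell to 0.651 of the VEC mean. The tests are limma on log2(value + 1), adjusted by Benjamini-Hochberg over all 13346 genes with a threshold of 0.05. In all 4 of the 10 genes passed, against 25.3% of all tested genes. Higher calls numbered 3 of 10, against 11.3%, and lower calls 1 of 10, against 14.0%. The median log2 fold change was 0.14 over the 10 genes and -0.0023 over all tested genes.

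**Figure D1:**
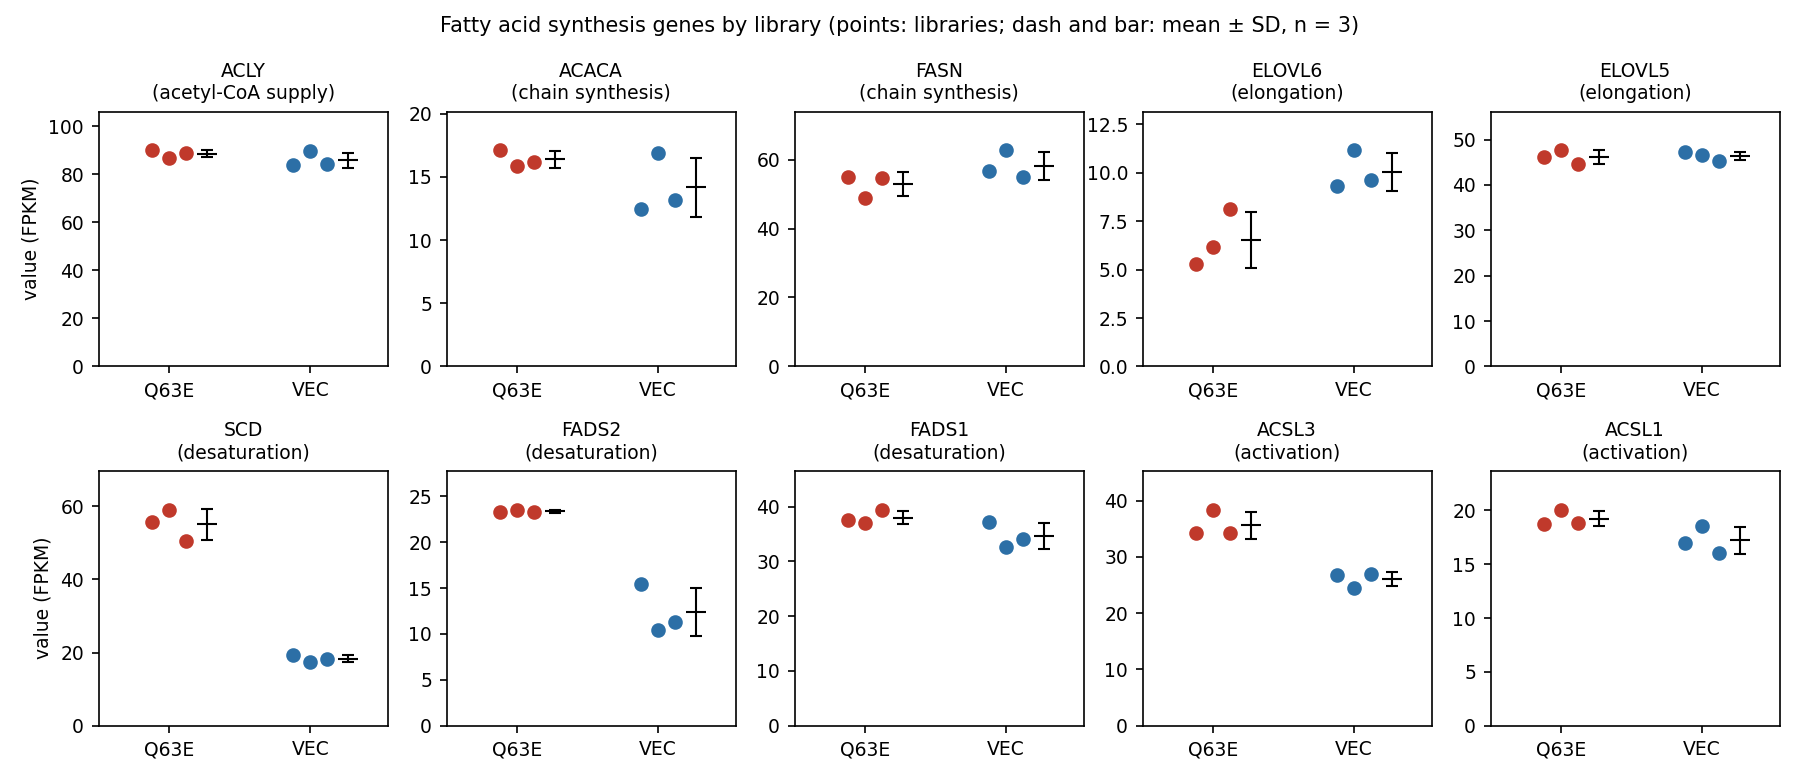
Values in FPKM (vertical axis, from 0) of the 10 genes in each library, with Q63E left of VEC; points are libraries, the dash and bar the mean ± SD (n = 3). SCD, FADS2, ACSL3 and ACSL1 lie higher in every Q63E library than in any VEC library, ELOVL6 lies lower, and the other 5 genes overlap.

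SCD (ENSG00000099194, GRCh38 chromosome 10 from 100347124 to 100364834, plus strand) encodes the enzyme that places the first double bond in stearate and palmitate. It had 55.7, 59.1 and 50.6 FPKM in Q63E libraries, against 19.3, 17.4 and 18.1 FPKM in VEC libraries. The groups lay far apart, and the lowest Q63E library was well above the highest VEC library. The means were 55.1 ± 4.28 FPKM in Q63E and 18.3 ± 0.968 FPKM in VEC (SD, n = 3 each), a log2 fold change of 1.54 (SE 0.071, limma adjusted p = 7.02e-05). By log2 fold change SCD ranked 82 among the 13346 genes, counted from the largest rise. Its pseudogene SCDP1 was listed at 0 in all libraries.

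FADS2 (ENSG00000134824, chromosome 11 from 61792980 to 61867354, plus strand) encodes the rate-limiting desaturase of linoleate and alpha-linolenate. It had 23.3, 23.5 and 23.3 FPKM in Q63E libraries, against 15.4, 10.5 and 11.3 FPKM in VEC libraries. The Q63E libraries were nearly equal, VEC replicate 1 stood above the other 2 VEC libraries, and the groups did not overlap. The log2 fold change was 0.88 (SE 0.13, limma adjusted p = 0.00470), and it was 1.04 without VEC replicate 1. FADS1 (ENSG00000149485, chromosome 11 from 61799625 to 61829318, minus strand), which acts later on the same chains towards arachidonate, lies within the span of FADS2 on the other strand. It had 37.5, 37.1 and 39.5 FPKM in Q63E libraries, against 37.2, 32.6 and 34.1 FPKM in VEC libraries. The groups overlapped, and the log2 fold change of 0.13 (95% interval -0.0099 to 0.28) did not pass (limma adjusted p = 0.154).

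FADS1 and FADS2 share 490 exon bases on opposite strands, and the counting is not stated to use strand, so reads there cannot be assigned to either. FADS2 also shares 49 exon bases with FEN1, a nuclease gene of DNA replication on the same strand. FEN1 fell, with 73.8, 72.5 and 76.2 FPKM in Q63E libraries, against 84.0, 85.5 and 82.0 FPKM in VEC libraries (log2 fold change -0.17, limma adjusted p = 0.0174). FADS3, the next family member along the chromosome and a desaturase of sphingoid bases, rose, with a log2 fold change of 0.68 (limma adjusted p = 0.000314). It had 65.6, 67.0 and 68.6 FPKM in Q63E libraries, against 39.6, 43.5 and 41.6 FPKM in VEC libraries. The neighbours TMEM258 (log2 fold change -0.013) and MYRF (0.24) did not pass (limma adjusted p = 0.940 and 0.287). Of the genes named at this locus, FADS2 and FADS3 were thus higher and FEN1 lower.

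ACSL3 (ENSG00000123983, chromosome 2 from 222860934 to 222944639, plus strand) had 34.2, 38.4 and 34.2 FPKM in Q63E libraries, against 26.7, 24.5 and 26.9 FPKM in VEC libraries. The groups did not overlap, and the log2 fold change was 0.43 (SE 0.066, limma adjusted p = 0.00486). ACSL1 (ENSG00000151726, chromosome 4 from 184755595 to 184826818, minus strand), a synthetase of the outer mitochondrial membrane and endoplasmic reticulum, had 18.8, 20.1 and 18.9 FPKM in Q63E libraries, against 17.0, 18.6 and 16.1 FPKM in VEC libraries. The groups were separated by a narrow gap and the test was not passed (log2 fold change 0.15, 95% interval -0.010 to 0.32, limma adjusted p = 0.151). Groups that did not overlap were found for 5 of the 10 genes, against 43.9% of all tested genes. In 4 of them Q63E lay above, against 21.1%.

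Upstream windows are shown for the 3 genes that rose and for FADS1, which lies within the FADS2 span and did not pass. They are shown because SREBP-1 and its partner NF-Y act on promoters of this pathway. Each window holds the 250 bases before a RefSeq start on GRCh38.p14, 5′ to 3′ on the gene's strand. These starts differ from the ends of the gene spans given above. The FADS2 and FADS1 windows lie inside those spans, and the SCD and ACSL3 windows partly overlap theirs. They are chr10:100346983-100347232 for SCD, chr11:61816154-61816403 for FADS2, chr11:61817004-61817253 for FADS1 (minus strand) and chr2:222860786-222861035 for ACSL3. RefSeq lists 2 windows for FADS2, and the downstream one is shown, while the other held none of the motifs. Capitals mark matches, on either strand, to the sterol regulatory element TCACNCCAC, the E-box CACGTG, the NF-Y box CCAAT or the GC box GGGCGG.
SCD: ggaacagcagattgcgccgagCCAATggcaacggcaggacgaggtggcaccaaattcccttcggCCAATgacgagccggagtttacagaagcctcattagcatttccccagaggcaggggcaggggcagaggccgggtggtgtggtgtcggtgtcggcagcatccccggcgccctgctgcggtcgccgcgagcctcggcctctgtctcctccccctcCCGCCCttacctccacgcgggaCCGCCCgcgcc
FADS2: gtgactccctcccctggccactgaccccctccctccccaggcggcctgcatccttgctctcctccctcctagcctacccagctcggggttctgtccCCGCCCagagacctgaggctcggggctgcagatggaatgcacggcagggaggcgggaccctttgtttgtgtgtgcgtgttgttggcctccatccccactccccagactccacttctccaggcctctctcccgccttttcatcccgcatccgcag
FADS1: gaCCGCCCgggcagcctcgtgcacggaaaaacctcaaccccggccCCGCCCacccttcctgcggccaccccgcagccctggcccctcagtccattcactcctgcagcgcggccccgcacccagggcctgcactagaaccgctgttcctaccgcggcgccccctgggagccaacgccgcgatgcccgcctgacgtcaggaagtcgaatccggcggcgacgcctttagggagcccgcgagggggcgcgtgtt
ACSL3: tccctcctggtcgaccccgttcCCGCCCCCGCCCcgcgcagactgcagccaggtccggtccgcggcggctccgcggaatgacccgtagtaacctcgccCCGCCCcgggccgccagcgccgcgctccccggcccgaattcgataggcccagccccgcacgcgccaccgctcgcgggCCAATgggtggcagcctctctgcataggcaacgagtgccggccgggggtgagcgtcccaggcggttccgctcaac
The SCD window held 2 CCAAT boxes, at -229 to -225 and -186 to -182 from the start, and 2 GC boxes. ACSL3 had 1 CCAAT box and 3 GC boxes, FADS2 had 1 GC box and FADS1 had 2, and no matches overlapped in these windows. Neither the sterol regulatory element nor the E-box was matched in these 4 windows. Over 35116 RefSeq windows of the same length, 0.88% held the sterol regulatory element, 6.34% the E-box, 32.0% CCAAT and 42.6% the GC box. Of the 10 genes 9 had windows, 17 in all: 1 of 5 ACSL1 windows held the sterol regulatory element and the ELOVL5 window held an E-box. FASN had none in the table. These letters describe the windows and say nothing of binding.

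None of the 3 steps that build palmitate passed the test. ACLY (ENSG00000131473, chromosome 17 from 41866908 to 41930542, minus strand), which supplies acetyl-CoA, had 89.9, 86.9 and 88.9 FPKM in Q63E libraries, against 84.0, 89.5 and 84.2 FPKM in VEC libraries. FASN (ENSG00000169710, chromosome 17 from 82078333 to 82098332, minus strand), which assembles palmitate, had 55.0, 49.0 and 54.6 FPKM in Q63E libraries, against 56.8, 62.7 and 55.0 FPKM in VEC libraries. The groups of both genes overlapped and neither passed. The log2 fold change of ACLY was 0.044 (95% interval -0.051 to 0.14, limma adjusted p = 0.457), and that of FASN was -0.13 (95% interval -0.30 to 0.031, limma adjusted p = 0.204). ACLY shares 156 exon bases with the antisense gene AC125257.2, so reads there cannot be told apart without strand.

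ACACA (ENSG00000278540, chromosome 17 from 37084988 to 37406818, minus strand) encodes the carboxylase that makes malonyl-CoA. It had 17.1, 15.8 and 16.2 FPKM in Q63E libraries, against 12.5, 16.9 and 13.2 FPKM in VEC libraries. VEC replicate 2 lay among the Q63E libraries, and the log2 fold change of 0.21 (95% interval -0.062 to 0.48) did not pass (limma adjusted p = 0.228). Without VEC replicate 2 it was 0.33 and passed (limma adjusted p = 0.0287).

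Of the elongases, ELOVL6 fell and ELOVL5 did not pass. ELOVL6 (ENSG00000170522, chromosome 4 from 110045846 to 110199199, minus strand) had 5.29, 6.18 and 8.14 FPKM in Q63E libraries, against 9.33, 11.2 and 9.65 FPKM in VEC libraries. The groups did not overlap, though Q63E replicate 3 came near the VEC libraries, and the log2 fold change was -0.57 (SE 0.15, limma adjusted p = 0.0359). The call was lost when Q63E replicate 1 or 2 or any VEC library was left out (limma adjusted p of 0.0710 to 0.106). ELOVL5 (ENSG00000012660, chromosome 6 from 53267398 to 53349179, minus strand), which lengthens polyunsaturated chains, had 46.3, 47.6 and 44.6 FPKM in Q63E libraries, against 47.2, 46.6 and 45.4 FPKM in VEC libraries. Its groups overlapped throughout, with a log2 fold change of -0.0073 (95% interval -0.11 to 0.095, limma adjusted p = 0.921).

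Genes in the same region of a chromosome moved together in places, so each gene was also set against its 50 nearest tested genes on the same chromosome. These regions differed widely in width. The midpoints of the neighbours ran from 81430900 to 82849000 for FASN, from 101186000 to 119254000 for ELOVL6 and from 163954000 to 189952000 for ACSL1. Around ELOVL6 46 of 50 neighbours had a log2 fold change below 0, with a median shift of -0.38. With that shift subtracted ELOVL6 was at -0.18 (SE 0.14) and did not pass (limma adjusted p = 0.420). Around ACACA the shift was 0.20, with 6 of 50 neighbours below 0, and ACACA itself was at 0.0043 after subtraction. The shift around FASN was -0.12, with 35 of 50 neighbours below 0, and FASN was at -0.016 after subtraction. Shifts around SCD (0.067), FADS2 (0.071) and ACSL3 (0.035) were small beside their own changes, and all 3 passed after subtraction, at 1.47, 0.81 and 0.40 (limma adjusted p = 7.53e-05, 0.0116 and 0.0159). ACLY, ELOVL5, FADS1 and ACSL1, with shifts of 0.060, 0.056, 0.071 and 0.031, did not pass either way.

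**Figure D2:**
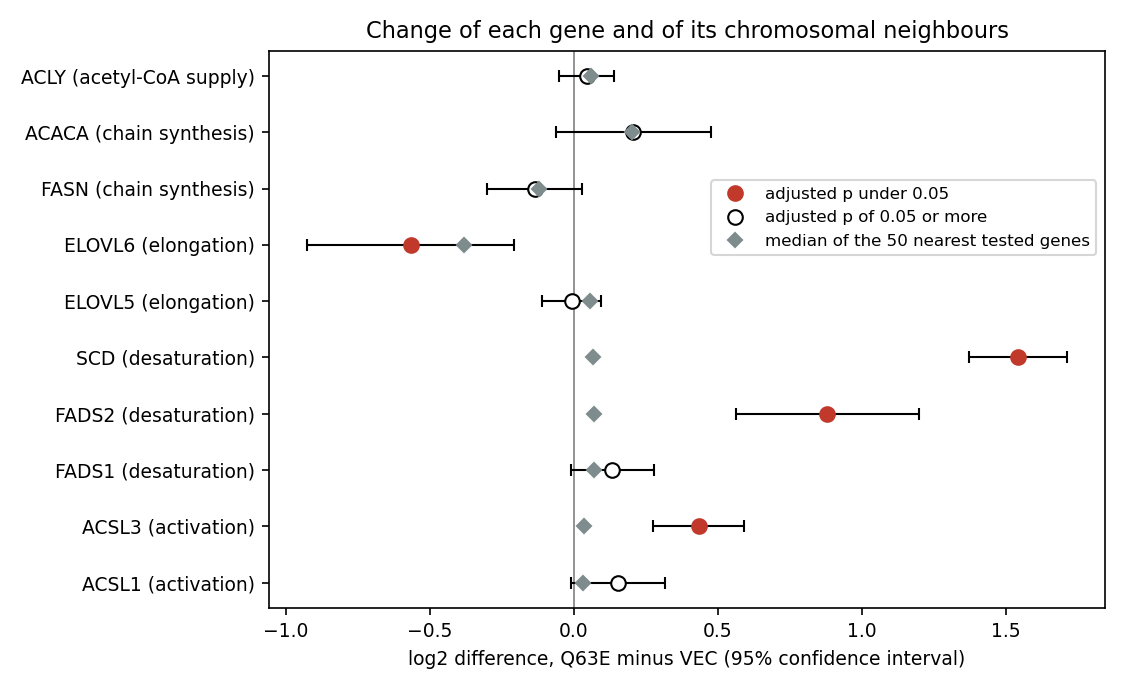
Log2 difference, Q63E minus VEC, of each gene (circles, filled where the limma adjusted p was under 0.05) with its 95% confidence interval, and the median shift of its 50 nearest tested genes (grey diamonds). The diamonds lie far from SCD (1.54 against 0.067) and FADS2 (0.88 against 0.071), and inside the interval of ELOVL6 (-0.57 against -0.38).

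The change of SCD was compared with that of every other gene by fitting, in each library, the log2 value of the gene minus that of SCD. All 9 other enzyme genes moved less than SCD, with differences from -0.66 (FADS2) to -2.11 (ELOVL6) on the log2 scale. For 97.4% of all other tested genes the difference was likewise below 0 and passed, and 97.5% passed in either direction. That share also counts genes that fell, even by more than SCD rose. The count of 9 is thus near the background. All these differences share the values of SCD. For FADS2, the closest, the difference was -0.66 (SE 0.12, limma adjusted p = 0.000686), and for ACSL3 it was -1.11 (SE 0.084, limma adjusted p = 1.72e-06). The ratio of SCD to FASN was 1.05 ± 0.144 in Q63E and 0.315 ± 0.0336 in VEC (SD, n = 3 each), with no overlap between libraries. SCD was thus at about the level of FASN in Q63E and well below it in VEC. The ratio of SCD to ACLY was 0.623 ± 0.0556 in Q63E and 0.213 ± 0.0179 in VEC, and that of SCD to FADS1 was 1.45 ± 0.158 in Q63E and 0.528 ± 0.00799 in VEC (SD, n = 3 each). The ratio of SCD to ELOVL6, the elongase that makes its substrate stearate, was 8.77 ± 2.26 in Q63E and 1.83 ± 0.258 in VEC (SD, n = 3 each).

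**Figure D3:**
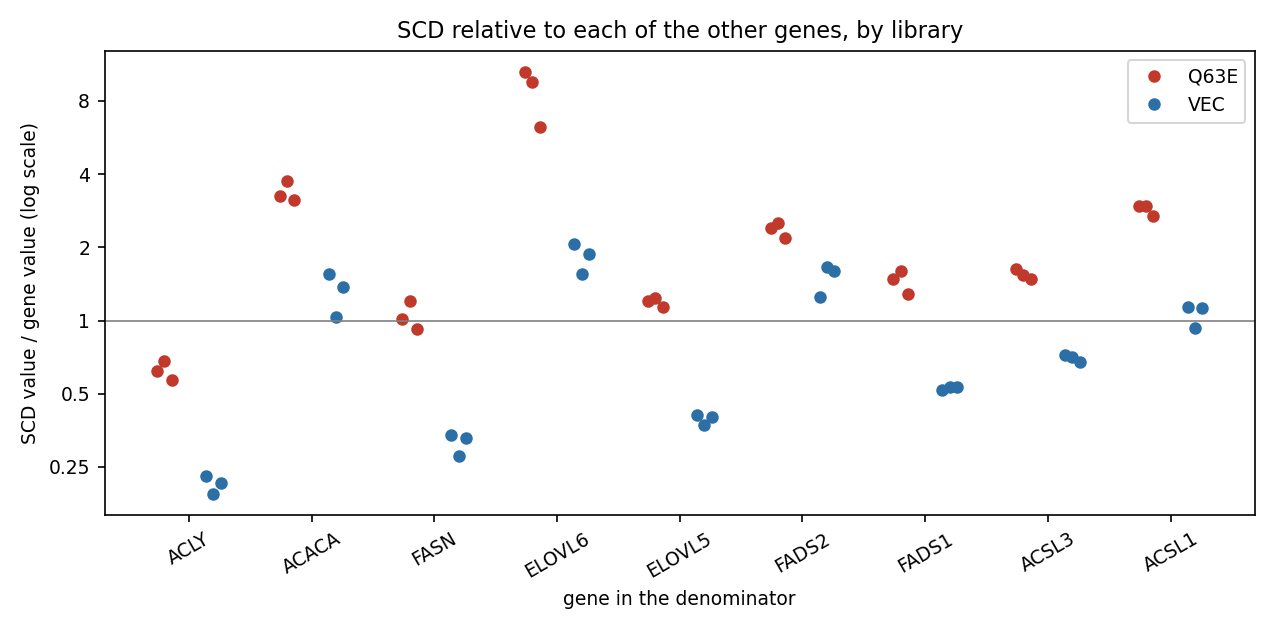
Ratio of the SCD value to that of each other gene (vertical axis, log scale) in each library, Q63E left of VEC. For all 9 genes the 3 Q63E libraries lie above the 3 VEC libraries, with the gap narrowest for FADS2 (mean 2.36 in Q63E and 1.50 in VEC).

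In order of level, Q63E cells had ACLY, SCD, FASN, ELOVL5, FADS1, ACSL3, FADS2, ACSL1, ACACA and ELOVL6, from 88.6 to 6.54 FPKM. VEC cells had ACLY, FASN, ELOVL5, FADS1, ACSL3, SCD, ACSL1, ACACA, FADS2 and ELOVL6, from 85.9 to 10.05 FPKM. Rank 2 in Q63E thus belonged to SCD, which had rank 6 in VEC. Libraries of SCD and FASN overlapped in Q63E, as did those of FADS1 and ACSL3. In VEC each gene from SCD down overlapped the next one in the order. The 10 values summed to 382 ± 2.68 FPKM in Q63E and 323 ± 8.39 FPKM in VEC, of which SCD held 14.4% ± 1.03 in Q63E and 5.65% ± 0.351 in VEC (SD, n = 3 each).

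The genes whose log2 values followed SCD most closely over the 6 libraries, among 11567 protein-coding genes, were L1CAM (Pearson r = 0.9996), SERPING1, PFKFB4, CAST and FDXR (the lowest r of these was 0.998). This describes 2 groups of 3 libraries, and r was above 0.95 for 625 genes. L1CAM, a cell adhesion protein, had 199, 210 and 183 FPKM in Q63E libraries, against 84.7, 80.7 and 80.7 FPKM in VEC libraries.

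Other genes of fatty acid metabolism moved in both directions. Of 121 listed genes in 7 groups 100 were tested, of which 15 were higher and 29 lower, with a median log2 fold change of -0.039. The background was 11.3% higher and 14.0% lower. Of 8 tested genes of carbon and NADPH supply, 0 were higher in limma (1 at an unadjusted p under 0.05) and 3 lower (median -0.097). SLC25A1, which exports citrate from mitochondria, and PGD of the pentose phosphate pathway fell by 0.23 and 0.15 on the log2 scale. Neither of these passed after subtraction of the neighbours' shift (limma adjusted p = 0.610 and 0.115), and PGD was lost in 11 of 14 alternatives.

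Of 19 tested further enzymes of synthesis, elongation and desaturation, 5 were higher and 6 lower (median -0.058). ELOVL7, an elongase of saturated chains, rose to 9.30 ± 0.367 FPKM in Q63E, against 4.55 ± 0.626 FPKM in VEC (SD, n = 3 each, log2 fold change 0.90, limma adjusted p = 0.00180). SCD5, the other human stearoyl-CoA desaturase gene, had 4.99, 5.05 and 4.08 FPKM in Q63E libraries, against 6.68, 7.63 and 6.13 FPKM in VEC libraries. It fell while SCD rose (log2 fold change -0.45, limma adjusted p = 0.0320), but its neighbours' median was -0.37 and it was at -0.082 after subtraction (limma adjusted p = 0.691). The call was also lost without any 1 of the Q63E libraries, and without VEC replicate 1 or 2. CYB5R3, the reductase that passes electrons towards the desaturases, and MCAT of mitochondrial fatty acid synthesis fell by 0.60 and 0.50 on the log2 scale. Neither passed after subtraction of the neighbours' shift (limma adjusted p = 0.0695 and 0.796). The remaining lower genes, HACD3, TECR and CYB5B, named after their values were seen, had log2 fold changes of -0.37, -0.36 and -0.23. They passed after subtraction (limma adjusted p = 0.00242, 0.0459 and 0.0237), as did the higher ELOVL7 (limma adjusted p = 0.00265). CYB5B was lost in 9 of 14 alternatives.

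Among 17 tested regulators 3 were higher and 7 lower (median -0.17). SREBF1, which encodes SREBP-1 and was named after its values were seen, had 28.5, 26.7 and 30.3 FPKM in Q63E libraries, against 29.3, 28.3 and 28.4 FPKM in VEC libraries. Its groups overlapped (log2 fold change -0.010, limma adjusted p = 0.920). SREBF2, likewise added and the gene of the sterol-pathway factor SREBP-2, fell by 0.30 on the log2 scale, but was at 0.16 after subtraction of its neighbours' shift (limma adjusted p = 0.0762). INSIG1, also added, had 9.17, 9.44 and 9.68 FPKM in Q63E libraries, against 7.61, 6.65 and 8.33 FPKM in VEC libraries. It did not pass (log2 fold change 0.29, limma adjusted p = 0.0581), but passed after subtraction of its neighbours' shift (0.36, limma adjusted p = 0.0452). PPARG, a nuclear receptor of lipid storage, rose to 21.3 ± 0.250 FPKM in Q63E, against 13.2 ± 0.619 FPKM in VEC (SD, n = 3 each). PPARA, the related receptor of fatty acid oxidation, fell by 0.72 on the log2 scale and RXRA, their partner, by 0.36. SCAP, which escorts SREBPs to the Golgi, rose by 0.30, but was at -0.079 once the shift around it was subtracted. After that subtraction PPARG (0.31) and RXRA (-0.17) passed (limma adjusted p = 0.0165 and 0.0475) and PPARA did not (0.194). PPARA was also lost without VEC replicate 3.

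Of 16 tested genes of glycerolipid assembly and lipid droplets 4 were higher and 4 lower (median 0.034). PLIN2, a coat protein of lipid droplets, rose to 54.4 ± 2.87 FPKM in Q63E, against 33.7 ± 1.68 FPKM in VEC (SD, n = 3 each, log2 fold change 0.67, limma adjusted p = 0.0006). LPIN3, a phosphatidate phosphatase, rose by 0.46 on the log2 scale, and the glycerol-phosphate acyltransferases GPAT3 and GPAT4 fell by 0.79 and 0.46. Neither acyltransferase passed after subtraction of its neighbours' shift (limma adjusted p = 0.0599 and 0.395).

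Fatty acid uptake and binding had 0 higher in limma (1 at an unadjusted p under 0.05) and 3 lower of 9 tested (median -0.064). FABP4, a fatty acid binding protein best known from adipocytes, fell to 0.29, 0.89 and 1.07 FPKM in Q63E libraries, against 8.36, 7.07 and 6.89 FPKM in VEC libraries (limma adjusted p = 0.000646). MFSD2A, a transporter of lysophosphatidylcholine with polyunsaturated chains, fell by 0.77 on the log2 scale. Both passed after subtraction of the neighbours' shift (limma adjusted p = 0.00124 and 0.00773).

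Fatty acid oxidation had 3 higher and 6 lower of 24 tested (median -0.054). The lower ones included the carnitine palmitoyltransferase genes CPT1A and CPT1B, which control entry of fatty acids into mitochondria. CPT1C and CPT2, named after their values were seen, did not pass (log2 fold change 0.10 and -0.051, limma adjusted p = 0.751 and 0.831). SLC25A20 of the same group, likewise added, rose by 0.60 on the log2 scale (limma adjusted p = 0.0213). It did not pass after subtraction of its neighbours' shift (limma adjusted p = 0.324). CPT1A had 3.80, 3.77 and 3.97 FPKM in Q63E libraries, against 10.6, 9.71 and 11.0 FPKM in VEC libraries (log2 fold change -1.24, limma adjusted p = 0.000241). CPT1B had 1.84, 2.97 and 2.35 FPKM in Q63E libraries, against 6.01, 6.42 and 8.89 FPKM in VEC libraries (log2 fold change -1.26, limma adjusted p = 0.00414). DECR1, needed to oxidise unsaturated chains, fell by 0.70 on the log2 scale and HADH of the oxidation spiral by 0.69. CPT1A, CPT1B, DECR1 and HADH all passed after subtraction of the neighbours' shift. Of 7 tested genes of the AMPK complex and its upstream kinase STK11, which restrain acetyl-CoA carboxylase, 0 passed in limma, and at an unadjusted p under 0.05 there were 2 higher and 2 lower. The most abundant, PRKAG1 and PRKAA1, had log2 fold changes of -0.18 and 0.27 (limma adjusted p = 0.102 and 0.0883).

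**Figure D4:**
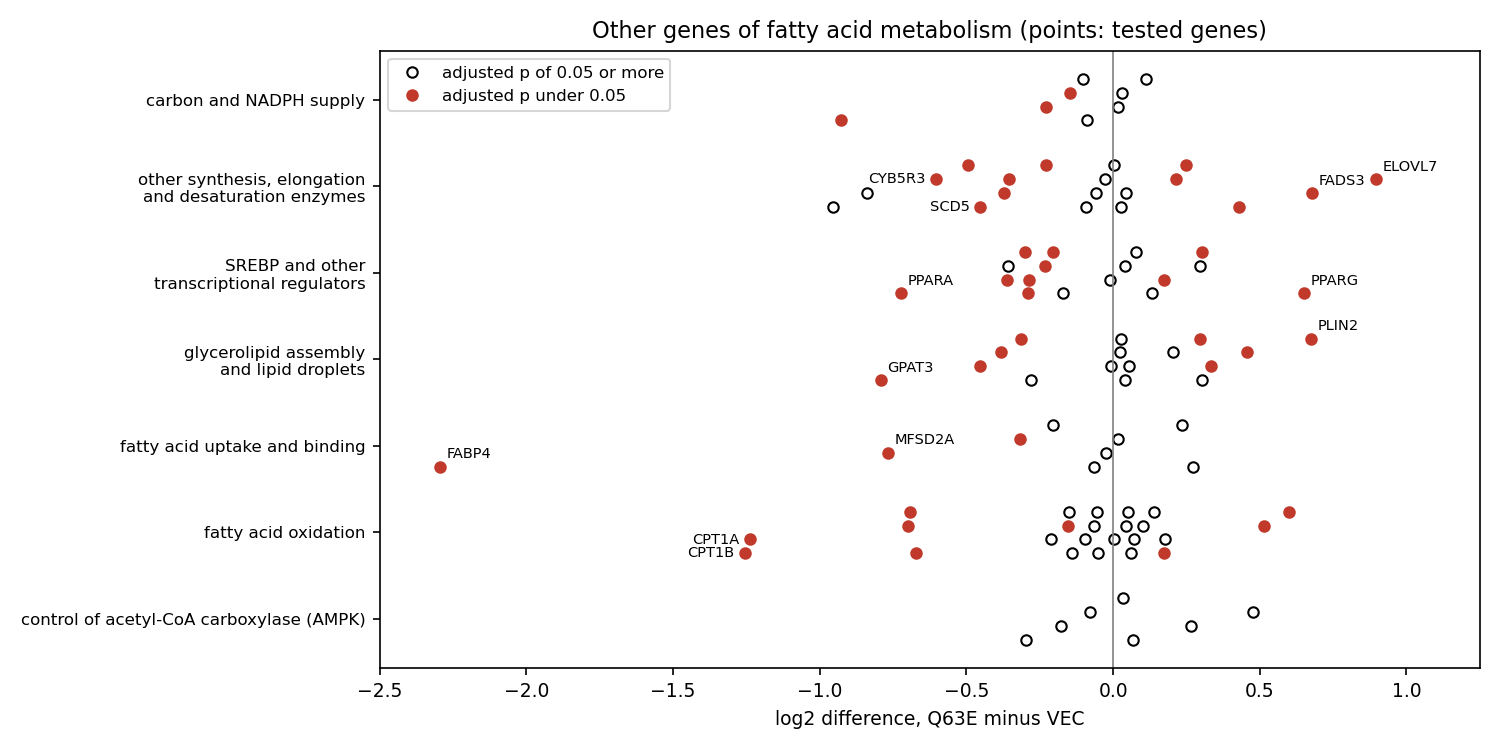
Log2 difference, Q63E minus VEC (horizontal axis), of the 100 tested genes in 7 groups of fatty acid metabolism; each point is a gene, filled where the limma adjusted p was under 0.05. FABP4 (-2.29), CPT1A and CPT1B lie farthest to the left, and ELOVL7 (0.90) farthest to the right.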

How the data were processed

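RNA from 3 Q63E and 3 VEC libraries of T24 cells was sequenced by the authors from Illumina TruSeq libraries, per the labels' protocols. HISAT2 2.1.0, Bowtie2 and GRCh38.p10 are listed without roles, per the submitters' processing notes, and no counting program, annotation or filter is stated. The deposited values, 1 table of 58882 rows per library, are taken as FPKM from their behaviour, since neither headers nor labels name the unit. At best 28.3% to 33.0% of low values per library lay within 0.1 of whole reads, against 20% with no steps, so counts were not recovered, depth is unknown and no counting interval is given.

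Values were transformed as log2(value + 1), which understates changes of low genes. Ensembl genes with a mean of at least 1 were fitted on group alone with limma 3.58.1 in R 4.3.3, with moderated variances that follow a trend in mean level, and p is two-sided. A fold is the mean in Q63E over that in VEC. Symbols were found for 57392 identifiers, and coordinates are from GENCODE release 29 on GRCh38, whose primary coordinates are those of the authors' build. The fit was tested on simulated data.

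The members, gene groups, motifs and tests were chosen with earlier results of these data known. Named genes are the 10 members, RHOC, SCD5, the genes beside FADS2, the 5 closest to SCD, and up to 4 of each group past the threshold with the largest change (the 2 most abundant where fewer than 2 passed). Alternatives were another pseudocount, other filters, scaling, centring, no trend, a replicate block, subtraction of the median of the 50 nearest genes, and each library left out. Some genes that the rule names are not reported here.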

Additional observations from a re-analysis of the deposited data

How the results depend on the processing

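The calls of SCD, FADS2 and ACSL3 held in all 14 alternatives, with log2 fold changes of 1.47 to 1.60, 0.78 to 1.04 and 0.38 to 0.47, and the 9 differences from SCD passed in all alternatives run (subtraction of the neighbours' shift was added for them after the data were seen). ELOVL6, the 1 member called lower, left 0 members lower with no filter on low values (log2 fold change -0.57, adjusted p = 0.0857), with the replicate block (-0.57, adjusted p = 0.0592) and after subtraction of the neighbours' shift (-0.18), and ran from -0.71 to -0.44 with 1 library left out, where members lower were 0 or 1. ACACA ran from 0.13 to 0.33 with 1 library left out. ELOVL5, near 0, changed sign when scaled (0.0288), centred (0.0020) and with 1 library left out (-0.030 to 0.017), and ACLY after subtraction of the shift (-0.015), none of them passing. So did SREBF2 (0.16, from -0.30) and SCAP (-0.079), the shifts around which were larger than their changes.

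Genes higher in Q63E, 1510 in all, numbered 992 to 1138 with 1 library left out, the lowest without Q63E replicate 3 (992) and replicate 1 (1000), and 942 with the replicate block; genes lower, 1873 in all, numbered 1183 after subtraction of the shift. Same-numbered libraries did not deviate together over all tested genes (r of -0.042 to -0.0087), so no pairing by number was seen. Such a correlation cannot exclude a shared batch that affects few genes. Of 44 called genes in the other groups 17 held in every alternative and 25 were changed by subtraction of the neighbours' shift. Unknown depth limits what can be said of genes with low values.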

Other observations

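ACACB, the carboxylase isoform of the mitochondrial surface, had 1.77, 1.72 and 3.19 FPKM in Q63E libraries, against 40.9, 1.49 and 1.21 FPKM in VEC libraries, so its VEC mean rests on replicate 1. The antisense gene AC125257.2, which shares 156 exon bases with ACLY, was listed at 0 in all Q63E libraries and in VEC replicates 2 and 3, against 84.6 FPKM in VEC replicate 1. SERPING1, among the genes closest to SCD, had 3.74, 4.07 and 3.06 FPKM in Q63E libraries and was listed at 0 in all 3 VEC libraries.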
